A study of Mus musculus with 4 samples.

Results

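HNKO 3 is 1 of the 13 hepatocyte clusters that the authors named in a single-nucleus RNA-Seq (snRNA-Seq) data set of mouse liver. Its members were taken from the deposited cluster names, and they numbered 288 of 4410 hepatocyte nuclei and of 5193 nuclei in all. The nuclei came from 6 female mice on a C57BL6/BomTac background that carried floxed Nampt alleles. The 3 WT mice were littermates without Cre. The 3 HNKO mice also carried Cre under the albumin promoter, which deletes Nampt in cells that express albumin. All mice were 8 to 12 weeks old at the start and had been fed a purified control diet for 6 weeks. Nuclei of each mouse carried a hashtag, an antibody with an oligonucleotide that names the mouse, and were then sequenced together in 2 RNA pools, so the mouse of each nucleus is known from its hashtag alone. Mice are called WT mouse 1 to 3 and KO mouse 1 to 3, in the order of their hashtag names, since the names HNKO 1 to 3 belong to clusters. They came from a cohort in which some mice drank nicotinamide riboside, and the sources used here do not say which water these 6 mice had.

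Of the 288 nuclei, 285 came from KO mouse 3, 2 from WT mouse 1 and 1 from KO mouse 2. HNKO 3 held 33.6% of the 847 hepatocyte nuclei of KO mouse 3 (exact binomial 95% interval 30.5 to 36.9%). HNKO 3 nuclei were absent among 713 of WT mouse 2, 657 of WT mouse 3 and 812 hepatocyte nuclei of KO mouse 1, which allows shares of up to 0.421%, 0.457% and 0.369% (3 counts of each total). The exact upper limits were 0.516%, 0.560% and 0.453%. Nearly all other hepatocyte nuclei of KO mouse 3 were in the clusters HNKO 2 (479 nuclei) and Central HNKO 2 (78 nuclei), whereas those of KO mouse 1 were mostly in HNKO 1 and those of KO mouse 2 shared clusters with WT mice. HNKO 3 is thus a cluster of 1 animal, and its differences from WT hepatocytes cannot be told apart from differences between that animal and the others, and the values below are sums over its 285 nuclei from KO mouse 3.

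The liver lobule is organised along the blood flow from the portal vein to the central vein. Periportal hepatocytes are known for gluconeogenesis, urea synthesis and amino acid breakdown, and pericentral hepatocytes for drug and bile acid metabolism. A ring of cells next to the central vein makes glutamine through Glul. Wnt ligands from the endothelium of the central vein maintain the pericentral programme, for which Axin2, Lgr5, Rnf43 and Tbx3 are well-known target genes. Nampt makes nicotinamide mononucleotide, the precursor of NAD in the salvage pathway.

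Values are CPM, the UMIs of a gene, which stand for single RNA molecules, per 1000000 UMIs of the summed nuclei, and intervals are exact Poisson 95% intervals that cover counting error only. Nampt stood at 73.6 CPM in HNKO 3 (61.3 to 87.6), 101 in HNKO 2, and 84.8, 105 and 96.9 in the 3 WT mice. The HNKO 3 value lay below that of each WT mouse by less than 2-fold. Counting all reads of a gene, introns included, does not show whether exons are deleted, so these values check neither the labels nor the deletion. Over all hepatocytes of the 3 mice per genotype, Nampt had a log2 fold change of 0.03 ± 0.27 (SE; edgeR adjusted p = 0.98).

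HNKO 3 nuclei expressed the defining genes of hepatocytes, most of them at lower levels than in the WT mice. Alb, which encodes albumin, stood at 2514 CPM, Apob at 1020 and Hnf4a at 259. Alb was below its 5436 to 7281 CPM in the WT mice, while Apob and Cyp2e1 lay within their range and Hnf4a just below it. Apoa1 (254 CPM against 514 to 648), Ttr (593 against 699 to 821) and Serpina1a (91.4 against 137 to 162) were below every WT mouse. So was Cps1, at 5580 against 12856 to 17648 CPM. All hepatocyte markers together summed to 11355 CPM, against 22205 to 28686 in the WT mice and 9675 in HNKO 2. Markers of other cells were far below their level in those cells. The 6 endothelial markers summed to 43.5 CPM against 30.4 to 37.9 in the WT mice and 10111 in endothelial nuclei, and Clec4g was at 0. The 5 Kupffer markers summed to 5.84 CPM with Timd4 and Marco at 0, the 5 leukocyte markers to 34.1 CPM, and the 9 cholangiocyte markers to 353 CPM (626 in HNKO 2 and 11277 in cholangiocytes) with Krt19 and Krt7 at 0. Of the 6 stellate markers, Reln alone gave 145 of 160 CPM, against sums of 52.3 to 103 in the WT mice and 14481 in stellate nuclei, and Lrat was at 0. The median nucleus held 4349 UMIs, against 5341 in HNKO 2 and 3572 to 4162 in the WT mice. In KO mouse 3 the hashtag of the mouse gave a smaller share of the hashtag counts, 52.7% in HNKO 3 and 49.8% in HNKO 2 against 70.8 to 77.4% in WT hepatocytes, and its part in the results was not tested.

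HNKO 3 nuclei were first described by genes known to vary along the lobule. A landmark score was computed for each nucleus as the mean scaled log expression of 8 pericentral genes minus that of 8 periportal genes, in SD units. The median score of HNKO 3 was -0.48, that of HNKO 2 -1.08 and that of Central HNKO 2 1.38. WT hepatocytes had medians of -1.55 to -1.45, and WT nuclei of the cluster Central 1 had a median of 0.49. HNKO 3 thus scored between HNKO 2 and Central HNKO 2, and 232 of its 285 nuclei (81.4%) scored above the HNKO 2 median. The score measures expression and does not show the position of a nucleus in the lobule. HNKO 2 scored above the WT medians although its measured pericentral landmarks had a median log2 ratio of -2.43 to WT mice. That of its periportal landmarks was -0.28. In HNKO 3 the medians were 0.08 for the pericentral and -1.29 for the periportal landmarks, against 0.34 for all genes. A score above that of WT mice thus need not mean higher pericentral genes. Only 64 nuclei (22.5%) scored above the lowest Central HNKO 2 nucleus. When every nucleus was thinned to 2000 UMIs, the distance between the HNKO 3 and HNKO 2 medians went from 0.60 to 0.44.

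**Figure D1:**
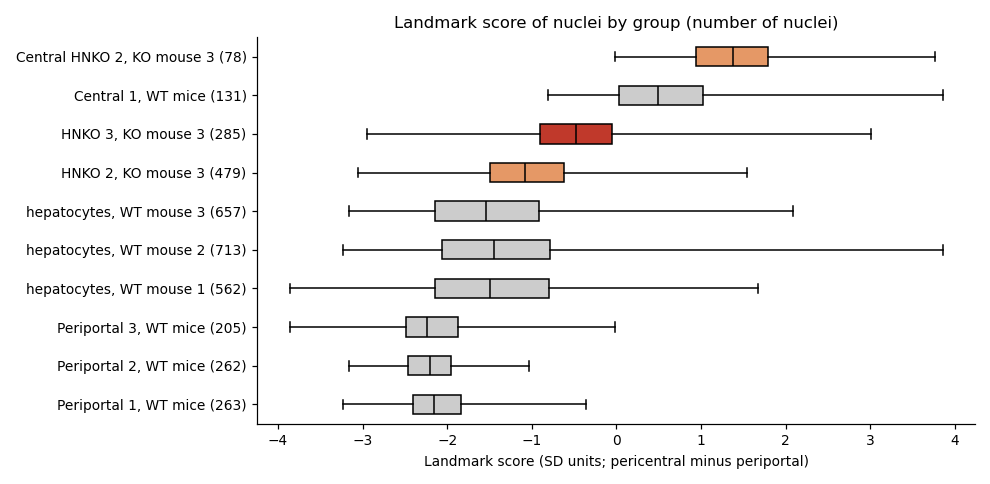
Landmark score (x axis, SD units, pericentral minus periportal genes) by group of nuclei, with the number of nuclei in brackets. Boxes show quartiles and the median, and whiskers the lowest and highest nucleus. HNKO 3 has a median of -0.48, between HNKO 2 at -1.08 and Central HNKO 2 at 1.38.

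The landmark genes themselves showed a split within the pericentral set. Cyp2e1, an ethanol- and drug-oxidising P450, stood at 1043 CPM in HNKO 3, 178 in HNKO 2 and 1966 in Central HNKO 2, with 726 to 1146 in the WT mice. Glul was at 43.2 CPM and the glutamate transporter Slc1a2 at 26.9 CPM in HNKO 3, against 1198 and 3272 in Central HNKO 2. HNKO 3 thus held Cyp2e1 at the WT level while Glul and Slc1a2 were below the range of the WT mice (121 to 130 CPM for Glul and 201 to 309 for Slc1a2). Not all pericentral landmarks were low. Of 6 measured, 2 were lower than in WT mice and 1 was higher (0 under TMM scaling, described below). Lgr5 was detected in 30.9% of HNKO 3 nuclei against 16.2 to 21.9% in WT mice. After thinning the shares were 13.8% and 8.90 to 15.6%. Of the 8 periportal landmarks, Sds, a serine-degrading enzyme, was at 56.7 CPM in HNKO 3 and 183 in HNKO 2, and Cyp2f2 at 42.6 and 145. Both were lower again in Central HNKO 2, at 37.0 and 2.31 CPM.

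The 5 genes given as markers of HNKO 3 were chosen by their expression in this cluster, so their levels are a description. In GRCm38 they lie at chr19:36731731-36736653 on the minus strand (Ppp1r3c), chr5:119670669-119684724 on the plus strand (Tbx3), chr9:21835510-21837347 on the plus strand (Angptl8), and chr7:44812256-44816658 (Atf5) and chr7:30922372-30924681 (Hamp2), both on the minus strand. Ppp1r3c, which targets protein phosphatase 1 to glycogen, stood at 145 CPM (128 to 165) in HNKO 3 against 13.1, 9.87 and 17.1 CPM in the 3 WT mice. It was 62.0 CPM in HNKO 2 and 178 in Central HNKO 2, and 12.5 and 10.7 in KO mice 1 and 2. All 3 clusters of KO mouse 3 lay above all 5 other mice for this gene.

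Tbx3, a transcription factor and Wnt target of pericentral hepatocytes, was at 56.1 CPM (45.4 to 68.5) in HNKO 3, 10.8 in HNKO 2 and 185 in Central HNKO 2. The WT mice had 3.69, 8.86 and 5.85 CPM, and KO mice 1 and 2 had 3.32 and 6.35. Tbx3 therefore separated HNKO 3 from HNKO 2 more than the other markers did, with a log2 ratio of 2.28, but its highest level was in Central HNKO 2.

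Angptl8, a secreted inhibitor of lipoprotein lipase, and Atf5, a stress-responsive transcription factor, marked the mouse more than the cluster. Angptl8 was at 133 CPM (116 to 151) in HNKO 3, 103 in HNKO 2 and 127 in Central HNKO 2, against 16.7, 21.8 and 15.5 in the WT mice. Atf5 was at 106 CPM (91.4 to 123), 81.2 and 87.9 in the same clusters, against 32.6, 18.7 and 12.1. The intervals of HNKO 3 and Central HNKO 2 overlapped for both genes. Their log2 ratios of HNKO 3 to HNKO 2 were 0.37 and 0.38, below the 2-fold threshold.

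Hamp2, a paralog of the iron hormone hepcidin, was highest in HNKO 3 at 196 CPM (176 to 218). It was at 97.1 CPM in HNKO 2, 109 in Central HNKO 2, and 21.1 and 78.4 in KO mice 1 and 2. The WT mice had 54.9, 56.9 and 84.3 CPM. Hamp, the hepcidin gene, with which Hamp2 may share reads, was at 899 CPM in HNKO 3 and 634 in HNKO 2, but KO mouse 2 had 977 CPM. Hamp therefore did not set HNKO 3 apart from all other mice.

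**Figure D2:**
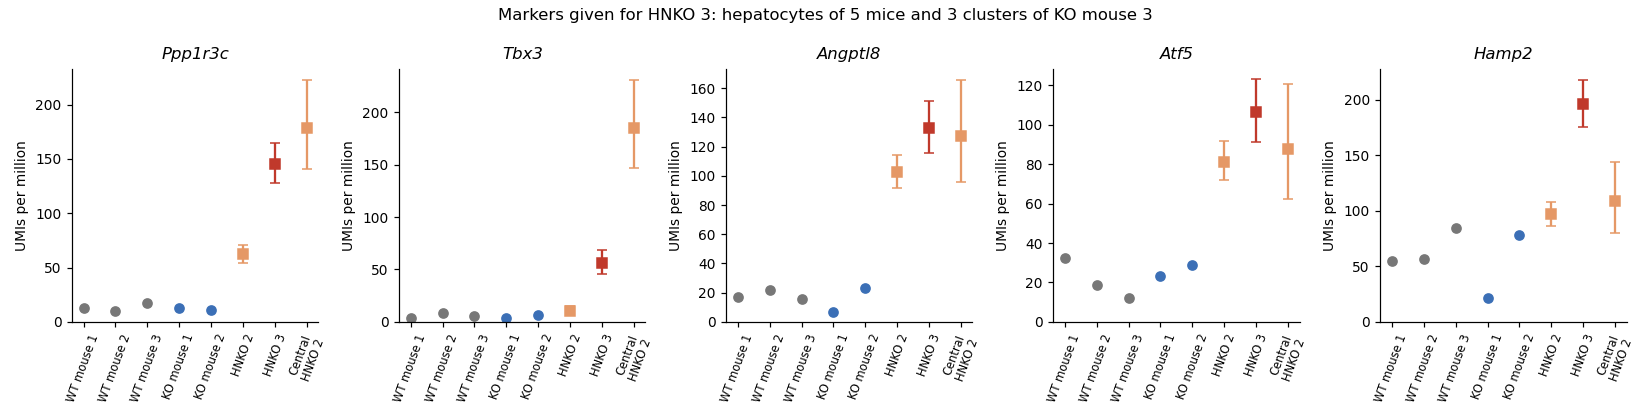
CPM (y axis, from 0) of the 5 markers in the hepatocytes of 3 WT mice (grey), 2 HNKO mice (blue) and 3 clusters of KO mouse 3 (squares with exact Poisson 95% intervals, HNKO 3 in red). Ppp1r3c reaches 145 CPM and Tbx3 56.1 CPM in HNKO 3, and Hamp2 is highest there at 196 CPM.

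Shares of nuclei with at least 1 UMI were compared after thinning to 2000 UMIs, which left out 25 of 285 HNKO 3 nuclei. Ppp1r3c was then detected in 20.8% of HNKO 3 nuclei (16.0 to 26.2%), in 8.89% of HNKO 2 nuclei and in 0.789 to 3.52% of the nuclei of the WT mice. In endothelial nuclei, thinned alike and used as the level of free RNA, the share was 1.33%. Tbx3 was detected in 9.62% of HNKO 3 and 2.39% of HNKO 2 nuclei, against 0.442% of endothelial nuclei. Hamp2 was detected in 27.7% of HNKO 3, 17.4% of HNKO 2, 11.7 to 15.4% of WT and 2.21% of endothelial nuclei. Angptl8 shares lay close together in HNKO 3 and HNKO 2, at 18.5% and 18.4%, and Atf5 was detected in 21.5% and 16.7%, against 2.65% and 4.42% of endothelial nuclei. Among the 38 endothelial nuclei of KO mouse 3 alone, the shares were 2.63% for Ppp1r3c and Hamp2, 0% for Tbx3, 5.26% for Atf5 and 7.89% for Angptl8, whose interval of 1.66 to 21.4% holds the HNKO 3 share. Without thinning the shares in HNKO 3 were 38.2% for Ppp1r3c and 19.3% for Tbx3, at a median of 4349 UMIs.

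HNKO 3 and HNKO 2 share the mouse, its genotype and its hashtag, so the comparison between them asks how 2 groups of hepatocytes in 1 liver differ. Both clusters were defined on these genes and no test was made. A gene was counted when its log2((CPM + 1) / (CPM + 1)) was at least 1 in size, with a mean of at least 20 CPM and at least 50 UMIs. Of 6106 genes past this minimum, 61 (0.999%) were higher and 114 (1.87%) lower in HNKO 3, and the median log2 ratio of all was -0.04.

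Of the 12 genes with the highest ratio, 7 encode P450 enzymes or sulfotransferases, which metabolise drugs and steroids. Apart from Cyp2e1, Lgr5 and Tbx3, these genes were the sulfotransferases Sult2a8 (312 against 42.6 CPM) and Sult2a5 (39.9 against 9.09), the P450 genes Cyp3a41a (155 against 29.5), Cyp3a41b, Cyp2c54 and Cyp2c38 (2407 against 587), the vitamin C enzyme gene Gulo, the sodium-proton exchanger Slc9a2 (102 against 26.2) and the secreted ribonuclease Rnase4 (819 against 223). Cyp2c, Cyp3a and Sult2a genes have near-identical copies between which reads can be split, so the level of a single copy is uncertain. In the P450 list, 11 of 18 measured members were higher than in HNKO 2 and none was lower, with a median log2 ratio of 1.26 against -0.04 for all genes.

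Of the 8 measured members of the list of Wnt and zonation regulators, 2 were higher than in HNKO 2 (Tbx3 and Lgr5) and 1 was lower. The median log2 ratio was 0.25. Tbx3 is a chosen marker of HNKO 3, and Lgr5 is a landmark gene of the score. Rnf43, a membrane ligase that limits Wnt receptors, was within 2-fold of HNKO 2, at 532 CPM in HNKO 3, 284 in HNKO 2 and 1340 in Central HNKO 2. Lgr5, a receptor for R-spondins, was at 118, 19.2 and 494 CPM. Axin2, a negative regulator of the pathway, gave 24 UMIs in HNKO 3 (14.0 CPM, 8.98 to 20.9), against 0.300 CPM in HNKO 2 (0.00759 to 1.67) and 69.4 in Central HNKO 2, and lay under the minimum used for the counts. Tcf7l1, a repressor of Wnt targets and the lower member, had the reverse order, with 69.3 CPM in HNKO 3, 188 in HNKO 2 and 20.8 in Central HNKO 2.

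The genes lowest in HNKO 3 relative to HNKO 2 began with Chrm3, the muscarinic acetylcholine receptor M3, at 3.85 CPM (1.64 to 8.42) against 85.5. Cryl1, a crystallin-related dehydrogenase of sugar metabolism, was at 9.05 against 147 CPM. The basement membrane gene Nid1 (1.75 against 44.4), the oxysterol-binding protein gene Osbpl3 (4.97 against 71.7), the growth factor gene Nrg1 (43.5 against 352) and the cadherin gene Cdh1 (26.4 against 151) followed. Nid1, Osbpl3 and Nrg1 were low in WT hepatocytes, at no more than 22.4 CPM in any WT mouse, and at 23.9, 32.0 and 231 CPM in KO mouse 1. Their HNKO 3 levels were thus closer to those of the WT mice than the HNKO 2 levels were. Mup20, Grip1, Atf3, Ptpre, Map4k4 and Cystm1 completed the 12 lowest, with log2 ratios of -2.51 to -2.13.

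Genes of cholesterol synthesis were lower in HNKO 3 than in HNKO 2, with 8 of 17 measured members past the threshold, none higher, and a median log2 ratio of -0.75. Sqle, which epoxidises squalene, was at 18.1 against 68.3 CPM. Idi1 and Cyp51 had log2 ratios of -1.59 and -1.51. These 3 genes were lower still in Central HNKO 2, where Sqle was at 9.25 CPM.

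Transcripts of the mitochondrial genome were lower as well, with 7 of 10 measured members past the threshold and a median log2 ratio of -1.24. COX1, a subunit of cytochrome c oxidase, was at 290 CPM in HNKO 3, 802 in HNKO 2, 381 in Central HNKO 2 and 607 to 802 in the WT mice. ND2, a subunit of complex I, was at 52.6, 158, 71.7 and 125 to 157 CPM. Transcripts of mitochondrial origin summed to 0.0928% of UMIs in HNKO 3, 0.224% in HNKO 2, 0.109% in Central HNKO 2 and 0.192 to 0.253% in the WT mice. These transcripts are not made in the nucleus, so in nuclear preparations they also measure carried-over cytoplasm, whose part in the result was not tested. The median spliced share of UMIs was 24.5% in HNKO 3 and 22.7% in HNKO 2.

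Whether these differences follow the lobule was examined in WT nuclei, of which only 2 belonged to HNKO 3. In each WT mouse, hepatocyte nuclei were ordered by landmark score, and the summed counts of the most pericentral and most periportal tertile were compared across the 3 mice with edgeR's quasi-likelihood test with mouse as a block, leaving out the landmark genes. Of 8491 genes, 721 (8.49%) were called pericentral and 500 (5.89%) periportal at an adjusted p of 0.05. Of the 61 genes higher in HNKO 3 than in HNKO 2, 54 were tested, and 44 of them (81.5%) were called pericentral and none periportal in WT mice. Of the 114 lower genes, 97 were tested, and 35 (36.1%) were called periportal and 8 (8.25%) pericentral. The higher genes were thus mostly pericentral in WT liver, while most of the lower genes were not called in either direction. Across 6045 genes the 2 log2 values had a Pearson r of 0.44 and a Spearman rho of 0.27, given as a description since genes are not independent replicates.

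**Figure D3:**
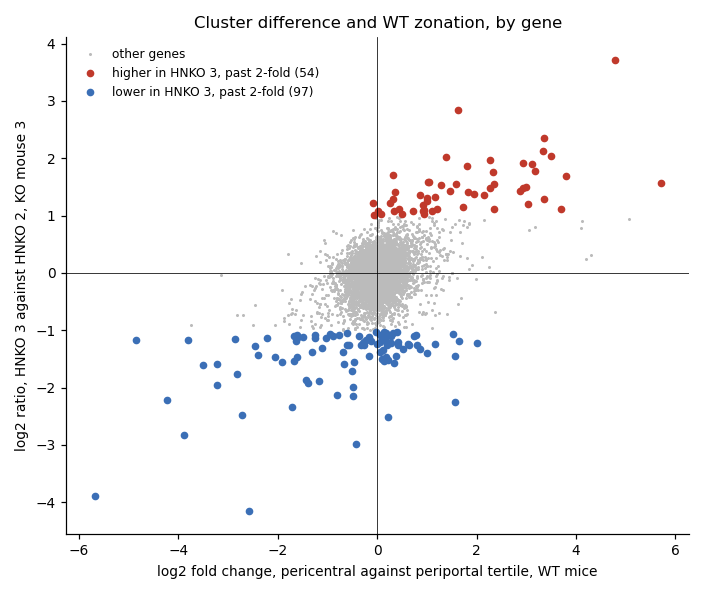
Log2 fold change between the pericentral and periportal tertiles of WT hepatocytes (x axis) against the log2 ratio of HNKO 3 to HNKO 2 (y axis), 1 point per gene, landmark genes left out. The 54 tested genes higher in HNKO 3 (red) lie mostly on the pericentral side, and the 97 lower genes (blue) spread over both sides.

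Cyp2c38 had a pericentral log2 fold change of 3.50 ± 0.14 (SE; edgeR adjusted p = 2.1e-15) and Cryl1 a periportal one of -5.69 ± 0.20 (edgeR adjusted p = 2.0e-16) in WT mice. Of the 5 markers of HNKO 3, 4 were tested and none was called. Ppp1r3c was at 12.9 ± 2.66 CPM (SD, n = 3) in the periportal and 14.3 ± 6.62 CPM in the pericentral tertile of WT mice, with a log2 fold change of 0.25 (edgeR quasi-likelihood, Benjamini-Hochberg adjusted p = 0.68). Hamp2 (-0.06, adjusted p = 0.89), Atf5 (-0.05, adjusted p = 0.95) and Angptl8 (-0.18, adjusted p = 0.78) were not called either by edgeR. Tbx3 was under the count filter, with 1.48 ± 1.31 CPM in the periportal and 10.6 ± 6.48 CPM in the pericentral tertile (SD, n = 3). Nampt itself was lower pericentrally in WT mice, with a log2 fold change of -0.47 (edgeR adjusted p = 0.019), from 113 ± 10.9 to 76.0 ± 15.4 CPM (SD, n = 3). That call was lost by DESeq2, without the mouse block, without WT mouse 1 (-0.39), and with the nuclei split at the median score (-0.17).

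Few genes peaked in HNKO 3. Against both other clusters of KO mouse 3, 5 genes were at least 2-fold higher, of which 1 is a pseudogene. They were Igfbp2, an insulin-like growth factor binding protein (182 CPM against 85.7 in HNKO 2 and 62.4 in Central HNKO 2), Sult2a2 (286, 94.9 and 142), Sult2a3, which was listed at 0 in Central HNKO 2, and the cadherin gene Cdh18 (525, 258 and 194). These were named after their values were seen. In WT mice Igfbp2 stood at 442, 410 and 203 CPM, so its peak within KO mouse 3 lay below every WT mouse. Only 4 genes were at least 2-fold lower than in both clusters, Chrm3 among them.

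Within HNKO 3 the summed levels of some genes differed along the landmark score. The 285 nuclei were ordered by landmark score into 3 groups of 95. Tbx3 was at 34.1 CPM (20.5 to 53.2) in the lowest group and 96.0 CPM (71.3 to 127) in the highest. Hamp2 went the other way, from 297 CPM (254 to 347) to 117 (89.6 to 150). Slco1b2, a hepatic uptake transporter, was at 2134 CPM in the lowest and 3289 CPM in the highest group. For Ppp1r3c, Angptl8 and Atf5 the intervals of the 2 groups overlapped. These intervals do not cover the spread between nuclei, and no test was made.

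The comparison with WT hepatocytes set HNKO 3 against the mean of the 3 WT mice. A gene was counted when it was at least 2-fold from that mean and outside the range of the 3 mice. Of 5574 genes, 635 (11.4%) were higher and 247 (4.43%) lower. The median log2 ratio of all genes was 0.34. With TMM scaling, which equalises the bulk of genes (factor 1.24 for HNKO 3 and 0.915 to 0.949 for the WT mice), the median was -0.09 and the counts were 161 higher and 458 lower. TMM scaling lowers every log2 ratio to the WT mice by a similar amount, so no gene past the threshold could change sign. The split between higher and lower genes turned over. List medians are therefore read against that of all genes, and counts of higher genes are given with their value under TMM scaling. List counts are read against the 11.4% and 4.43% of all genes. HNKO 3 stands for 1 mouse, and no test was made. All 5 markers were higher under both scalings, with log2 ratios of 3.35 for Ppp1r3c, 3.00 for Tbx3, 2.81 for Angptl8, 2.28 for Atf5 and 1.57 for Hamp2. Each also belongs to a gene list below, so counts of higher members include genes chosen by their level in HNKO 3.

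The enzymes of glucose release were lower than in the WT mice. Pck1, which commits oxaloacetate to gluconeogenesis, was at 539 CPM in HNKO 3 and 514 in HNKO 2 against 3180, 3490 and 3061 in the 3 WT mice. KO mice 1 and 2 had 2400 and 2992 CPM. G6pc, the last enzyme of glucose release, was at 261 and 308 CPM against 1981, 1409 and 1263. Both clusters of KO mouse 3 lay below all 5 other mice for both genes. Pck1 is also a periportal landmark gene of the score. The glycogen-targeting subunit Ppp1r3g was also lower, at 5.26 CPM against 40.0 to 55.1. In the glycogen and glucose list 2 of 18 measured members were higher, Ppp1r3c and Pklr (1 under TMM scaling), and 5 lower. The median log2 ratio was -0.05. Over all genes 11.4% were higher and 4.43% lower, so the count of higher members was near the share of all genes.

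In the list of insulin signalling and its FOXO targets, 6 of 11 measured members were lower and none higher, and the median log2 ratio was -1.29 against 0.34 for all genes. Igfbp1, which binds insulin-like growth factors, was at 81.2 CPM in HNKO 3 and 54.8 in HNKO 2 against 577, 584 and 330. The coactivator gene Ppargc1a was at 121 CPM against 435, 641 and 880, and the adaptor gene Irs2 at 85.3 CPM against 286.3, 321.98 and 129.3. Igf1, Foxo1 and Trib1 were the other lower members. Insr, which encodes the insulin receptor, was at 742 CPM against 485 to 568 and within 2-fold.

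**Figure D4:**
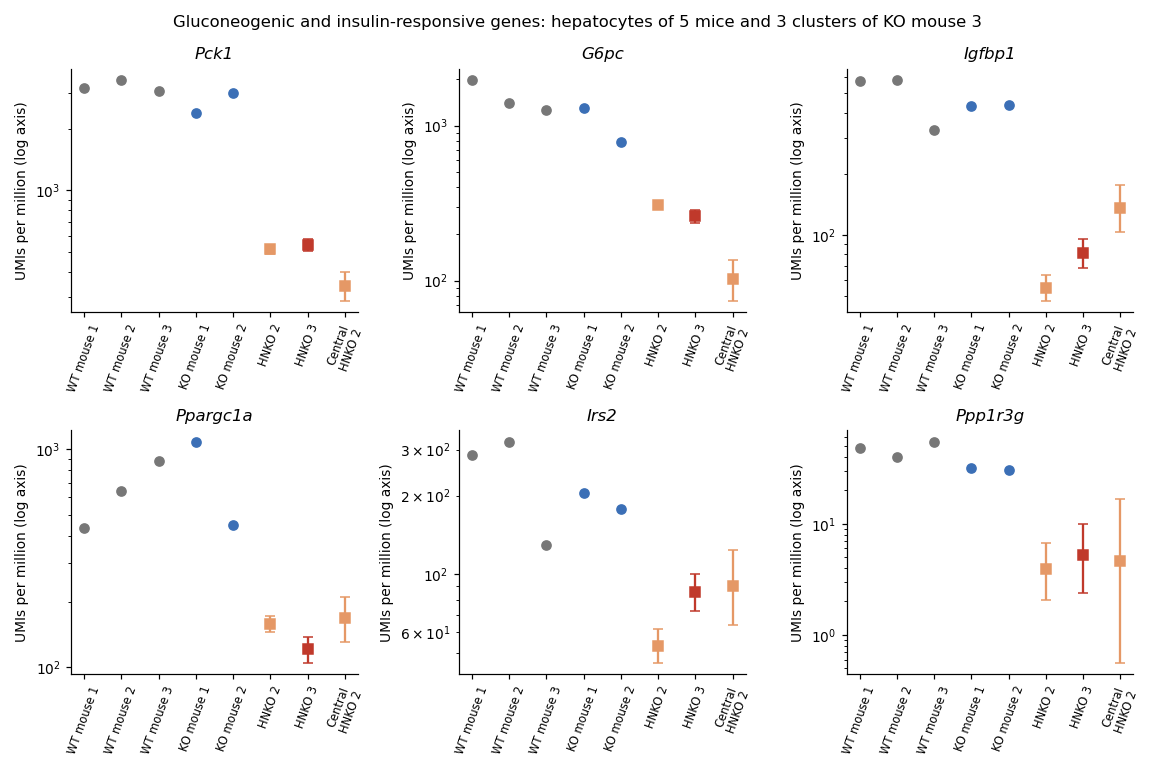
CPM on a log axis of 6 genes in hepatocytes of 3 WT mice (grey), 2 HNKO mice (blue) and 3 clusters of KO mouse 3 (squares with exact Poisson 95% intervals, HNKO 3 in red). For Pck1, HNKO 3 is at 539 CPM and the WT mice at 3061 to 3490.

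FOXO proteins bind the insulin response sequence CAAAACA. It was searched on both strands (the other strand reads TGTTTTG) in the 250 bases before the start of the genes in the insulin list, in RefSeq promoters of build GRCm38.p6. Of the 12 members 10 had an entry, and 3 held the motif, which 5.55% of 27025 promoters of this length hold. The windows of 30 bases below show the 3 genes, in gene orientation with the motif in capitals. Irs1 held 2 matches, 111 and 32 bases before its start, of which the farther is shown. The matches are a description of letters, and the genes were chosen with their values known.
Igfbp1 (chr11:7197668-7197697, plus strand): gagctcacaagCAAAACAaacttattttga
Irs2 (chr8:11008948-11008977, minus strand): gagtcacgtgtTGTTTTGctcttagttcag
Irs1 (chr1:82291532-82291561, minus strand): gctccgtcacgTGTTTTGctcctctggagt
Igfbp1 and Irs2 were lower in HNKO 3, while Irs1 was at 270 CPM, inside the WT range of 136 to 281.

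Urea cycle and amino acid genes were lower in 10 of 13 measured members, none was higher, and the median log2 ratio was -1.41. Cps1, the first enzyme of the urea cycle, was at 5580 CPM in HNKO 3 and 3912 in HNKO 2 against 12856, 14118 and 17648 in the WT mice. Asl was at 200 CPM against 655 to 865, and the aminotransferase genes Got1 and Tat had log2 ratios of -2.15 and -1.67. Sds, Hal, Ass1, Gls2, Glul, Oat and Rhbg of this list are also landmark genes, so the list partly repeats the landmark levels. Sds and Hal were above the most pericentral WT tertile, which was itself split on them.

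Lipid genes were divided. In the lipogenesis list 7 of 17 members were lower, among them Insig2, which retains SREBP in the endoplasmic reticulum (81.2 CPM against 926 to 1299), the elongase gene Elovl5 and the phosphatidate phosphatase gene Lpin1. Acly, also in this count, had a log2 ratio of 0.22 to the most pericentral WT tertile. Angptl8 and Dgat2 were higher (1 under TMM scaling). In the cholesterol list, 6 of 11 were higher (3 under TMM scaling) and 1 lower under both scalings. The higher members were led by Fdft1, squalene synthase, at 146 CPM in HNKO 3 and 230 in HNKO 2 against 18.4, 37.7 and 21.6. Hmgcs1, which makes the substrate of the mevalonate pathway, had a log2 ratio of 1.59.

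Most P450 genes that separated HNKO 3 from HNKO 2 were nearer to the WT level in HNKO 3. In HNKO 2 the median log2 ratio of the P450 list to WT was -1.79 and in HNKO 3 -0.62, and 4 of 18 members were lower in HNKO 3 and 2 higher (none under TMM scaling). Cyp2c29 was at 199 CPM against 459 to 2508, and Por, which feeds electrons to all microsomal P450 enzymes, at 475 CPM against 1333 to 1728. WT mice varied widely for several of these genes, as Cyp2c69 ranged from 16.5 to 317 CPM. In the bile acid list, 3 of 13 were lower and none higher. Cyp27a1, of the acidic synthesis pathway, was at 176 CPM against 536 to 902, Slc10a1, the main bile acid uptake carrier, at 123 against 248 to 360. Cyp7a1, the rate-limiting enzyme of the classic pathway, lay inside the WT range, at 252 CPM against 171 to 520.

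Mitochondrially encoded transcripts were lower than in WT mice in 8 of 10 measured members, with a median log2 ratio of -1.28, whereas the median of HNKO 2 was 0.02. Among transcription factor genes, Foxa2 (43.2 CPM against 5.85 to 11.1), Foxa3, Cebpa, Tbx3 and Atf5 were higher, and 4 of these 5 also under TMM scaling. Hnf4a was at 259 CPM against 279 to 361. Of the 5 measured NRF2 targets, Gclm, Gclc and Gstm1 were higher (1 under TMM scaling) and Me1 was lower. In the integrated stress response list, Atf5 and Atf4 were higher, Atf4 with a log2 ratio of 1.05 that did not pass under TMM scaling, and Atf3 was lower at 7.59 CPM against 34.2 to 54.4.

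The genes with the largest differences from the WT mice are given with their values in HNKO 2. The plastin gene Pls1 was at 47.1 CPM in HNKO 3, 126 in HNKO 2 and 1.99 to 3.29 in WT mice, and the calcium-binding protein gene Cib3 at 55.5, 238 and 3.15 to 5.11. Cib3 was at 4.63 CPM in Central HNKO 2, so HNKO 3 lay between its neighbours. The nuclear lamina gene Lmna was at 46.0, 50.3 and 3.40 to 10.1 CPM. Ahnak, Trp53cor1, C6, Ntf3 and Apol9a completed the higher set, with log2 ratios of 2.32 to 3.07 (Ahnak was under the minimum with TMM scaling). Of the lowest genes, St3gal5, which makes the ganglioside GM3, was at 220, 228 and 2135 to 2507 CPM, Trp53inp1, a p53 target, at 123, 144 and 1362 to 1529, and Noct, a rhythmic phosphatase gene, at 42.2, 61.7 and 415 to 957. Sult5a1, Fbf1, Cyp3a44, Gadd45g and Dstn were also among the 12 lowest, with log2 ratios of -4.28 to -3.35. Cryl1 had a log2 ratio of -3.66 to all WT hepatocytes and of 0.73 to their most pericentral tertile alone.

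In the other lists the counts depended more on the scaling. Over all genes 11.4% were higher and 4.43% lower, and a count near these shares is no result about its list. Acute phase genes had a median log2 ratio of -0.30 with 3 of 14 lower (5 under TMM scaling), led by Serpina3m (131 CPM against 920 to 1323). Iron and BMP genes had a median of 0.53 with 3 of 16 higher (1 under TMM scaling), p53 targets one of 0.21 with 2 of 5 higher and 1 lower (none and 2 under TMM scaling) and cytoplasmic ribosomal protein genes one of 0.29. PPAR-alpha targets had a median of 0.23 with 1 of 15 higher and 1 lower (none and 4 under TMM scaling), and growth hormone targets one of -0.42 with 1 of 8 lower (3 under TMM scaling). Of 13 clock genes, which had a median of 0.37, 3 were higher, none of them under TMM scaling, and 1 was lower. In the NAD synthesis list the median was 0.46, Qprt was higher (not under TMM scaling, where 3 of 14 members were lower) and Tdo2, which opens the tryptophan route, lower at 584 against 1041 to 2101 CPM. The NAD-consuming enzymes had a median of 0.29, and Sirt2 was at 44.4 CPM against 17.9 to 22.9, which did not pass under TMM scaling.

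**Figure D5:**
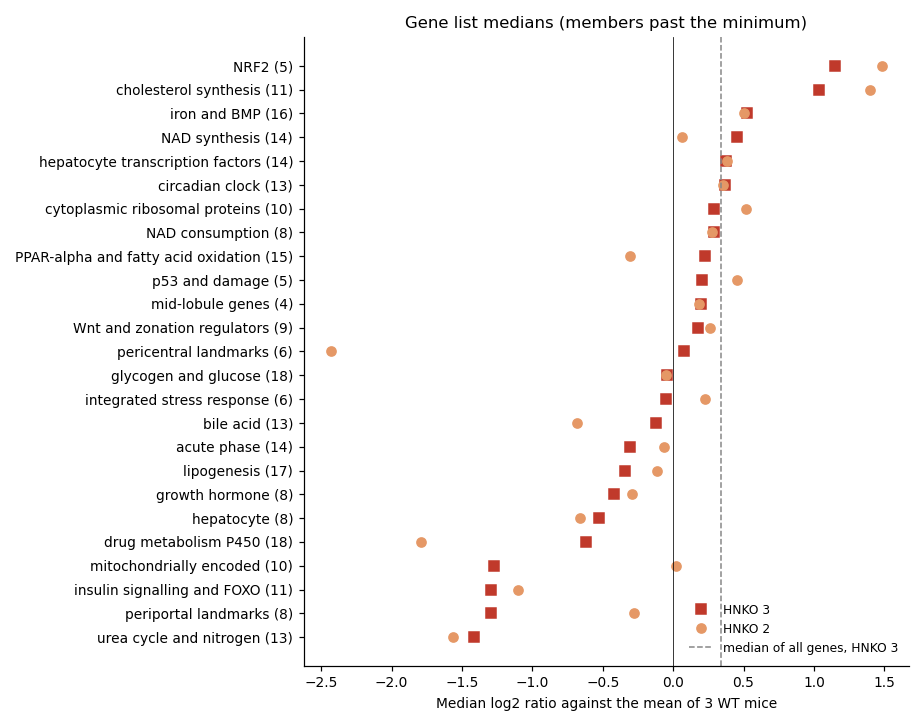
Median log2 ratio to the mean of 3 WT mice (x axis) by gene list, for HNKO 3 (red squares) and HNKO 2 (orange circles), with the number of members past the minimum in brackets. The dashed line is the median of all genes, 0.34. Insulin and urea cycle lists are low in both clusters, and mitochondrially encoded transcripts in HNKO 3 (-1.28) but not in HNKO 2 (0.02).

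Over mice, the question is whether genes that stand out in HNKO 3 differ between genotypes. When all hepatocyte nuclei were summed per mouse and the 3 HNKO mice were compared with the 3 WT mice with edgeR, 0 of 11810 genes (0%) passed an adjusted p of 0.05, 698 had an unadjusted p under 0.05, DESeq2 called 21, and edgeR called 32 without KO mouse 2 and 35 with no count filter. The log2 fold change was 1.24 ± 0.72 (SE) for Ppp1r3c (edgeR adjusted p = 0.82), 1.06 ± 0.76 for Tbx3 (adjusted p = 0.83 by edgeR) and -0.04 ± 0.47 for Hamp2 (adjusted p = 0.99 by edgeR). For Pck1 it was -0.78 and for Igfbp1 -0.72. These values rested on KO mouse 3, since without it they were -0.22 for Ppp1r3c, -0.39 for Tbx3, -0.45 for Hamp2, -0.29 for Pck1 and -0.21 for Igfbp1. Pls1 and Cib3 were not called by the main edgeR test. DESeq2 called both, with log2 fold changes of 4.01 and 4.23 (DESeq2 adjusted p = 1.3e-06 and 2.0e-05). Without KO mouse 3 they stood at 3.48 and 3.81 by edgeR, not called. C6 was then at 2.73, Lmna at 0.86, Apol9a at 0.29 and Ntf3 at -0.16. After thinning, Cib3 was detected in 17.2% of hepatocyte nuclei of KO mouse 1, 1.40% of KO mouse 2 and 10.0% of HNKO 3 nuclei. In the WT mice the shares were 0.526 to 1.66%, so KO mouse 2 lay within their range. None of the 5 markers reached its HNKO 3 level in the hepatocyte sums of KO mice 1 and 2. The markers were chosen by their expression in HNKO 3, and 1 cluster is set here against all hepatocytes of a mouse. This is therefore a description and does not show how many HNKO mice share the pattern.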

How the data were processed

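The authors made FASTQ files with Cell Ranger 5.0.1, quantified them with Alevin (GRCm38, GENCODE M25) and deposited estimated counts of UMIs per gene and nucleus, spliced and unspliced together (10.1% of nonzero values not whole within 0.001), SCTransform-corrected scores (used as an alternative only) and hashtag counts. The deposited table gave mouse, genotype and cluster, and the authors had kept hashtag singlets with under 5500 features. No doublet caller was run. Hashtags do not mark doublets of nuclei from the same mouse, and the part of such doublets in HNKO 3 was not tested. Here raw UMIs were summed per cluster or mouse (1711920 UMIs in HNKO 3, 3524500 to 4448100 per WT mouse) and scaled to CPM with a pseudocount of 1. Fold counts had no test. Zonation and genotype were tested on rounded sums with edgeR 4.0.16 (filterByExpr, TMM, quasi-likelihood F test, two-sided, Benjamini-Hochberg) in R 4.3.3, with DESeq2 1.42.0 as an alternative. On simulated counts with genes changed by 2 on the log2 scale, edgeR recovered 90% (genotype) and 95.5% (zonation), with 6 and 7 false calls. The simulated mice varied around 1 mean per gene, and none departed from the others across many genes. These shares therefore do not give the power of the tests in the real data. Barcodes do not name the RNA pool, so pools were not compared and the condition that named genes share a direction in both pools was dropped. Genes were named by rule: the 12 highest and lowest per comparison, and up to 4 members per list and its first member. The cluster, lists and rules were chosen with earlier results of these data known. Coordinates are those of GRCm38. A few genes named by the rule are not reported here.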

Additional observations from a re-analysis of the deposited data

How the results depend on the processing

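TMM scaling moved the counts against WT mice from 635 higher and 247 lower to 161 and 458, and without a minimum beyond 10 UMIs they were 2293 and 795. Leaving out a WT mouse gave 599 to 717 higher and 248 to 270 lower. Against HNKO 2 the counts were 286 and 642 without that minimum, and 172 lower with SCTransform-corrected values. The genotype test called 35 genes without a count filter, 21 by DESeq2 and 32 without HNKO replicate 2 (KO mouse 2), and 0 to 32 when any 1 mouse was left out. The zonation test called 525 genes by DESeq2, 1832 with 2 HNKO mice added, 195 without the mouse block, and 858 to 1042 when a WT mouse was left out. Among values not called, leaving out 1 mouse turned the genotype log2 fold change of Ppp1r3c (-0.22 to 1.66), Tbx3 (-0.39 to 1.50), Hamp2 (-0.45 to 0.36) and Nampt (-0.31 to 0.25), and the zonation log2 fold change of Ppp1r3c (-0.058 to 0.46), Angptl8 (-0.46 to 0.33), Atf5 (-0.28 to 0.062) and Hamp2 (-0.27 to 0.26). HNKO 3 was 27.2% of all nuclei of KO mouse 3, and the score distance to HNKO 2 was 0.44 after thinning. Without thinning, markers were detected in 38.2% (Ppp1r3c), 19.3% (Tbx3), 34.4% (Angptl8), 37.9% (Atf5) and 46.7% (Hamp2) of HNKO 3 nuclei. Against the most pericentral WT tertile, chosen after seeing the data, the log2 ratio turned to 0.73 for Cryl1, 0.84 for Sds, 1.90 for Cyp2f2, 1.42 for Ctsc, 0.22 for Acly and 1.89 for Hal, of which Sds, Cyp2f2, Ctsc and Hal were used to make the tertile. Leaving out the markers of HNKO 3 and of other cell types and lists with under 3 measured members, the number of gene lists with a median above that of all genes was 6 against WT mice, 5 to 7 under the alternatives, and 14 against HNKO 2 under each alternative run. The RNA pool alternatives were not run, since barcodes do not name a pool. No paired analysis was possible because the replicate numbers that groups share in the labels belong to sequencing pools; the zonation test is paired by mouse, not by such a number, and mice are numbered here only as names. The cluster rests on 1 mouse, so depth does not limit its comparison with WT mice as the number of mice does.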
